A study of Homo sapiens with 66 samples.

Results

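Complement is a set of plasma proteins and cell-surface receptors, and its genes C3, C5, CFB, CFD, CFP, C3AR1, C5AR1, C1QA and CR1 were followed here in 11 acute myeloid leukaemia (AML) cell lines that were left untreated or exposed to etoposide. The 9 genes were found by their symbols among 57992 gene identifiers, and all 9 had an identifier in the count files. They were chosen because C3 rose with etoposide in the 10 lines other than OCI-AML2, so for their changes between etoposide and untreated cells the calls of the fit across all genes are given as a description, without p-values, and support nothing by themselves. The cell lines were THP-1, MONO-MAC-6, NOMO-1, MOLM-13, MV-4-11, NB-4, HL-60, KASUMI-1, OCI-AML3, F-36P and OCI-AML2, all established human lines grown in culture. The untreated group was not given etoposide. The other group received etoposide, a topoisomerase II poison that leaves DNA double-strand breaks, for 24 hours at the line's own IC50. Each group had 3 libraries, which are biological replicates per the design text and were each made from cells pooled from 3 wells, and this gave 66 libraries. Each line is a single immortal culture, so the replicates are cultures of 1 line and not patients. In bulk RNA, fewer cells of a type and less RNA per cell cannot be told apart.

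In the complement cascade the classical, lectin and alternative pathways converge on C3, the central component, whose cleavage tags surfaces for uptake and releases a small peptide. C5 is cleaved next and starts the terminal pore. Factor B (CFB) binds C3b and is then cut by the protease factor D (CFD), which forms the alternative-pathway convertase that properdin (CFP) stabilises. C1QA encodes a chain of C1q, the recognition molecule of the classical pathway. C3AR1 and C5AR1 encode the receptors for the peptides released from C3 and C5, and CR1 encodes a receptor for C3b and C4b that also restrains the convertases. The liver makes most circulating complement, but monocytes, macrophages and neutrophils make several components and carry the receptors, and properdin comes mainly from leukocytes.

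In the GRCh38 annotation the central component C3 (ENSG00000125730.16) sits at chr19:6677704-6730562 (minus strand) and C5 (ENSG00000106804.7) at chr9:120932987-121075195 (minus strand). The alternative pathway genes are CFB (ENSG00000243649.8) at chr6:31945650-31952086 (plus strand), CFD (ENSG00000197766.7) at chr19:859453-867884 (plus strand) and CFP (ENSG00000126759.12) at chrX:47623172-47630305 (minus strand). C1QA (ENSG00000173372.16) sits at chr1:22635077-22639678 (plus strand). The receptor genes are C3AR1 (ENSG00000171860.4) at chr12:8056844-8066359 (minus strand), C5AR1 (ENSG00000197405.7) at chr19:47290023-47322066 (plus strand) and CR1 (ENSG00000203710.10) at chr1:207496147-207641765 (plus strand).

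RefSeq promoters on GRCh38.p14 were matched for 8 of the 9 genes. The 250 bases before the start sites of CFP, C3AR1 and C5AR1 are shown because these 3 genes followed C3 in the number of lines with a rise. The capitals mark matches, on either strand, to the PU.1 core (GAGGAA), a C/EBP motif (TTNNGNAA), an AP-1 motif (TGANTCA), the p53 decamer or an interferon-stimulated response element, which are described as letters and not as bound sites. CFP has 2 start sites in RefSeq, and the first shown here lies at the end coordinate of the gene given above.
CFP, chrX:47630306-47630555, minus strand: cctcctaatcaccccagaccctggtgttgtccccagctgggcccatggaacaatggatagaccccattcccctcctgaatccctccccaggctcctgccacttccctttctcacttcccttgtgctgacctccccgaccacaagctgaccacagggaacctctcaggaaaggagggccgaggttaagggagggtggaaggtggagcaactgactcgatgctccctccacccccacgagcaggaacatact
CFP, chrX:47629931-47630180, minus strand: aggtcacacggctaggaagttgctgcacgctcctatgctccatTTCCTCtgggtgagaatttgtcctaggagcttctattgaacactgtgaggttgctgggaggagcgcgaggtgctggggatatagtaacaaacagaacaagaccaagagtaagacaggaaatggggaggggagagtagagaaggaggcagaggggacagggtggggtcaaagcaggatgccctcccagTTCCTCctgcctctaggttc
C3AR1, chr12:8066360-8066609, minus strand: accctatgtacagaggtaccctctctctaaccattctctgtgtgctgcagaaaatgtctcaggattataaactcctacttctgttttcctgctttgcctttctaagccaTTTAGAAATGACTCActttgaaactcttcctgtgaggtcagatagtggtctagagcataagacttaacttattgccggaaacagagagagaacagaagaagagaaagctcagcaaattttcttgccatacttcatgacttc
C5AR1, chr19:47309611-47309860, plus strand: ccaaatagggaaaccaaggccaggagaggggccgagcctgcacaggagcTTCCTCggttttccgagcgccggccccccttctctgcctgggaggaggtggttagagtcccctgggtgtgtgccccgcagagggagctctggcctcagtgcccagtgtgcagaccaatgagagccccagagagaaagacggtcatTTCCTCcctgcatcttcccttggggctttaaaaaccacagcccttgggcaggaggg
The upstream CFP window held no match to the 5 motifs, and the inner one held 2 PU.1 cores, the nearer of them 15 to 20 bases before the start site. In C3AR1 a C/EBP match lay 134 to 141 bases before the start and an AP-1 match directly followed it at 127 to 133 bases, with no base in common. C5AR1 held 2 PU.1 cores, at 51 to 56 and at 196 to 201 bases before its start. Among all 35116 promoter windows of the same length, 23.6% held a PU.1 core, 33.2% the C/EBP motif, 6.57% the AP-1 motif, 5.57% the p53 decamer and 3.02% the interferon element.

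Reads on genes ranged from 17997404 to 24101670 per library with a median of 20241014. Levels are given as counts scaled to the library (CPM) after TMM normalization within a cell line. A gene without reads in the 3 libraries of a group may still have been present at about 3 reads, which is 0.0508 CPM for untreated THP-1, and such limits cover counting error only. Of 7 myeloid markers, CD33, SPI1 and LYZ reached 1 CPM in all 11 untreated lines, MPO and ITGAM in 10, CSF1R in 9 and the monocyte gene CD14 in 4. Of 4 hepatocyte markers in untreated cells, TTR had no reads, APOA1 stayed under 1 CPM, ALB passed 1 CPM only in F-36P, at 65.5 CPM, and SERPINA1, which myeloid cells also express, did so in 4 lines, at most at 8.67 CPM. Their summed level was lower with etoposide in F-36P (70.2 to 30.1 CPM) and MONO-MAC-6 and higher in the other 8 lines, for example in MV-4-11 (3.19 to 14.2 CPM) and OCI-AML3 (8.37 to 22.2 CPM). The summed level of the 7 myeloid markers was higher with etoposide in F-36P (486 to 647 CPM), MOLM-13, MV-4-11, OCI-AML3 and THP-1 and was lower in HL-60, KASUMI-1 (27380 to 13870 CPM), MONO-MAC-6, NB-4 and NOMO-1. This sum is set by the most abundant markers and does not give the direction of each. MPO alone held 27150 CPM in untreated KASUMI-1. ITGAM, 1 of the 7, had a positive log2 fold change in all 10 lines other than OCI-AML2. It is singled out because it is also a complement receptor gene described below. The changes of the other markers were not listed gene by gene, so ITGAM does not stand for the set. The untreated libraries of F-36P had reads on 20999 to 21285 genes and its etoposide libraries on 29738 to 30168, and those of KASUMI-1 on 19654 to 19932 and 24884 to 25445, the widest shifts among the 11 lines. The group medians were closest in THP-1, at 21873 and 22060 genes. The part of these shifts in the changes of complement genes was not tested. The etoposide libraries of OCI-AML2 were discarded by the study for read quality. None of 13604 genes was called there by edgeR's quasi-likelihood test, by its exact test or by DESeq2, with 456 genes at an unadjusted p under 0.05 in the first. Without the fold limit 3 genes passed, and the p53 targets CDKN1A (log2 fold change 0.73, edgeR adjusted p = 0.000289) and MDM2 (0.47, edgeR adjusted p = 0.00593) were higher in all 3 etoposide libraries than in any untreated one, under the fold limit. The line is described apart from the other 10.

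C3 rose in all 10 of these lines, where a gene was called when edgeR's adjusted p was below 0.05 and the fold change above 2. Among genes tested in all 10 lines, 0.161% were called induced in as many lines, and over all gene and line pairs 11.1% were called induced and 3.96% repressed. In 3 of the lines C3 passed the filter on low counts through its etoposide libraries alone, so that a difference there was largely built in. Of the pairs of all genes that passed in this way, 70.2% were called induced. The rise ranged from 1.06 (log2 fold change) in THP-1 to 5.61 in KASUMI-1, with a median of 3.70. In MONO-MAC-6 the untreated libraries held 4.59, 3.73 and 3.72 CPM of C3 and the etoposide libraries 166, 171 and 175 CPM, a log2 fold change of 5.41 ± 0.08 (SE, n = 3 and 3). This was the highest C3 level reached in any line. In KASUMI-1 C3 stood at 0.812, 0.683 and 0.548 CPM before and at 31.7, 35.2 and 34.1 CPM after the drug. In MV-4-11 it went from 2.15, 2.34 and 1.25 CPM to 30.4, 31.4 and 31.5 CPM (log2 fold change 4.03 ± 0.14). Both lines held little C3 before the drug. NOMO-1 rose from 8.42, 7.43 and 7.93 CPM to 85.6, 133 and 57.1 CPM, with the widest spread in CPM among the etoposide groups of the 10 lines. In MOLM-13 C3 went from 6.92, 11.4 and 10.1 CPM to 29.2, 48.9 and 46.7 CPM.

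At the low end of the scale, C3 in OCI-AML3 was 0.639, 0.439 and 0.526 CPM untreated and 5.65, 5.54 and 6.50 CPM after etoposide. F-36P held 0.338, 0.0579 and 0.334 CPM before and 2.96, 2.26 and 5.73 CPM after, and HL-60 held 0.261, 0.103 and 0.340 CPM before and 3.02, 3.78 and 7.09 CPM after. The untreated values of F-36P and HL-60 rest on 13 reads each over 3 libraries, and their folds of 14.6 and 19.6 are correspondingly imprecise (SE 0.53 and 0.44 on the log2 scale). The lines with the most C3 before treatment rose least. NB-4 went from 14.9, 17.3 and 22.0 CPM to 41.6, 50.3 and 62.8 CPM and THP-1 from 25.01, 23.3 and 23.7 CPM to 55.7, 50.2 and 44.7 CPM. The fold and the starting level share the untreated libraries, so this order is given as a description. Without the first etoposide library of THP-1 its log2 fold change was 0.98, just under the limit. In no line other than OCI-AML2 did an etoposide library overlap an untreated one. The share of all genes whose groups lie apart in this way was not counted, for C3 or for the genes below. In OCI-AML2 C3 was 7.35, 6.00 and 6.92 CPM untreated and 6.08, 7.40 and 6.60 CPM in the etoposide libraries, which overlap.

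**Figure D1:**
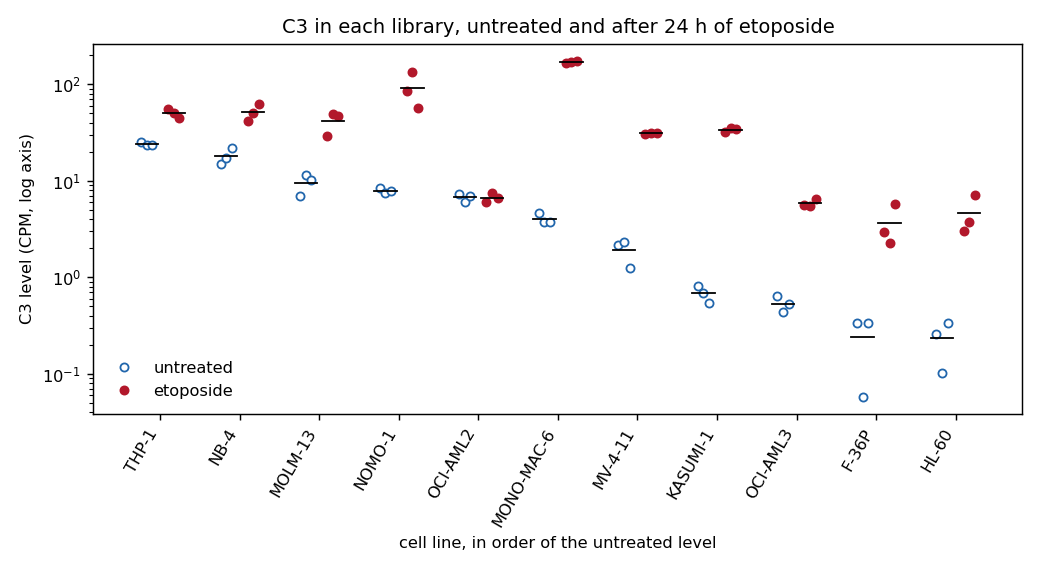
C3 in each of the 66 libraries, in CPM on a log axis, for the 11 cell lines in order of their untreated level; open circles are untreated and filled circles etoposide libraries, and the bars are means of 3. The filled circles lie above the open ones in 10 lines, at most 175 CPM in MONO-MAC-6, and overlap them in OCI-AML2.

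The 9 genes apart from CFB, whose level the files cannot show, were ranked per kilobase of exon. With etoposide C3 became the most abundant of them in MONO-MAC-6, at 14.7 CPM per kilobase, and in NOMO-1, at 7.94 CPM per kilobase. Before the drug its rank among them was 7 in MONO-MAC-6 and 5 in NOMO-1. C3 also led in both lines by the length of the canonical transcript in place of all exons. Of the C3 exon bases 11.7% are shared with the gene ENSG00000276980 on the same strand, which had 89 reads in all 66 libraries, and none of the shared bases lies in the canonical C3 transcript.

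C5, the component next in line, was called induced in 4 of 10 lines and its range of log2 fold changes ran from -0.47 in THP-1 to 2.56 in NB-4. In NB-4 C5 stood at 1.01, 1.20 and 1.26 CPM before and at 8.09, 5.78 and 6.60 CPM after etoposide. F-36P (log2 fold change 1.77), KASUMI-1 (1.37) and MONO-MAC-6 (1.31) were the other lines with a called rise, and the number was 4 to 6 with a library left out. MV-4-11 and HL-60 lay just under the 2-fold limit, at 0.98 and 0.99, and their etoposide libraries were all above the untreated ones. The highest C5 level was in MV-4-11, with 40.9, 35.0 and 36.5 CPM untreated and 76.2, 69.9 and 75.1 CPM after the drug. THP-1 held 39.1, 35.4 and 32.6 CPM untreated and 30.3, 19.1 and 27.8 CPM with etoposide, with no overlap between groups and a difference under the fold limit. C5 therefore did not follow C3 in every line. The C5 gene overlaps exons of CNTRL on the other strand, and the files count by strand.

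Properdin was called induced in 9 of 10 lines, a number reached by 0.425% of the genes tested in all lines. Its etoposide libraries lay above its untreated libraries in all 10. The largest rise was in MV-4-11, from 4.14, 3.59 and 4.11 CPM to 30.0, 32.1 and 31.6 CPM (log2 fold change 2.98 ± 0.11). NOMO-1 followed at 2.23, and KASUMI-1, the line without a call, had a log2 fold change of 0.96, with 23.3, 22.9 and 27.4 CPM before and 40.5, 58.2 and 44.8 CPM after. With a library left out the number of called lines was 8 to 10, and the calls lost were those of F-36P without untreated replicate 3 (0.96) and of OCI-AML3 without untreated replicate 1 (0.92) or etoposide replicate 3 (0.85). The highest level was in F-36P, at 42.1, 44.9 and 38.0 CPM before and 83.3, 102 and 87.4 CPM after etoposide. The log2 fold changes of properdin spanned a narrower range over the lines, 0.96 to 2.98, than those of C3, 1.06 to 5.61.

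Factor D, the protease that activates factor B, was called induced in 5 of the 9 lines where it passed the filter on low counts. MOLM-13 had the highest level, 20.3, 26.4 and 21.5 CPM untreated and 59.1, 78.0 and 84.5 CPM after etoposide. MV-4-11 rose most, by 1.75 on the log2 scale, and OCI-AML3 (1.08), MONO-MAC-6 (1.11) and KASUMI-1 (1.01) were close to the limit. The groups overlapped in HL-60, NB-4, NOMO-1 and THP-1, where the log2 fold changes were 0.15 to 0.34. The libraries of THP-1 were wide apart, at 10.5, 19.8 and 23.3 CPM untreated and 10.1, 30.9 and 25.3 CPM with the drug. The number of called lines was 2 without the first untreated library of each line, where KASUMI-1 (0.86), MONO-MAC-6 (0.75) and OCI-AML3 (0.92) lost their calls, and 3 without the third etoposide library, where KASUMI-1 (0.91) and OCI-AML3 (0.70) did. KASUMI-1 was also not called without its second etoposide library (0.88), with RLE scaling (0.99), with DESeq2 (0.99) or without a filter (0.96). F-36P held 4 reads of CFD before and 17 after and was not tested.

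Factor B had no reads in any of the 66 libraries. In the annotation 90.8% of the bases of its canonical transcript are shared on the same strand with C2 or with a readthrough gene of both, and reads that fall on more than 1 gene are left out of this kind of count. The readthrough gene also had 0 reads, and C2, with 69.9% of its canonical transcript shared, had 86 reads in 19 libraries. The files therefore cannot show the level of factor B. C1QA passed the filter in 3 lines through the etoposide libraries alone, with 3 to 10 reads in the untreated groups, and was called induced in all 3. Over all genes, 70.2% of the pairs that passed in this way were called induced. The calls of C1QA were thus largely built in, and only its levels are informative. NOMO-1 went from 0.205, 0.0496 and 0.0539 CPM to 2.58, 6.07 and 2.02 CPM, the only line above 2 CPM. THP-1 went from 0.105, 0.257 and 0.155 to 0.489, 0.985 and 1.21 CPM, and MV-4-11 from 3 reads to 44, a read ratio of 12.2 with an exact 95% interval of 3.90 to 61.2. C1QA had no reads in HL-60, MONO-MAC-6 and OCI-AML2 in either group. In NB-4 (5 reads untreated and 45 with etoposide) and MOLM-13 (7 and 27 reads) the etoposide libraries lay above the untreated ones without a test, and in F-36P 5 reads against 0 make a level at least 1.69-fold higher.

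C3AR1, the receptor for the peptide released from C3, was called induced in 9 of 10 lines. Its log2 fold changes ran from 0.09 in NB-4 to 3.14 in OCI-AML3, with a median of 2.14. OCI-AML3 went from 0.786, 0.488 and 0.669 CPM to 5.84, 5.54 and 5.83 CPM, and MV-4-11 from 2.20, 2.96 and 1.51 CPM to 21.3, 17.5 and 17.9 CPM. KASUMI-1 reached the highest level, 57.2, 58.7 and 57.2 CPM, from 13.6, 13.8 and 12.7 CPM. NB-4 was the exception, with 34.9, 35.9 and 44.2 CPM before and 37.2, 45.7 and 39.5 CPM after etoposide. It had the most C3AR1 of all untreated lines, and its libraries overlapped between groups.

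C5AR1, which encodes the main receptor for the peptide released from C5, was called induced in 8 of 10 lines with a median log2 fold change of 2.24. The share of all genes called induced in 8 or fewer lines was not counted, for C5AR1 or for any other gene here. In F-36P C5AR1 went from 1.18, 1.74 and 1.45 CPM to 36.3, 35.97 and 34.2 CPM (log2 fold change 4.61 ± 0.17), and in NB-4 from 4.11, 5.45 and 4.69 CPM to 36.2, 39.0 and 40.1 CPM. These were the only lines above 20 CPM. KASUMI-1 went from 8 reads over 3 libraries to 157, with 2.23, 2.33 and 2.62 CPM after the drug. It was 1 of 4 lines, 3 of them called, where C5AR1 passed the filter through the etoposide libraries alone. The call in OCI-AML3, from 19 reads to 72, was lost without its first untreated library (1.39). In HL-60 the etoposide libraries, at 2.13, 2.21 and 1.94 CPM, lay below the untreated ones, at 2.35, 4.23 and 2.49 CPM, and MOLM-13 showed overlapping groups at about 1 CPM. NB-4, in which C3AR1 was not called, had a rise of 3.02 on the log2 scale in C5AR1, while HL-60 had a called rise in C3AR1 (log2 fold change 1.12) and none in C5AR1. The call of C3AR1 in HL-60 was lost without etoposide replicate 3 (0.85).

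CR1, the receptor for bound C3b, differed most in direction. It was called induced in 5 of 9 lines tested and repressed in NB-4, and was not tested in MOLM-13 (12 reads untreated and 9 with etoposide). NOMO-1 rose from 35.2, 31.6 and 29.4 CPM to 78.5, 68.9 and 85.6 CPM and OCI-AML3 from 8.40, 12.6 and 17.0 CPM to 50.7, 36.04 and 58.6 CPM. NB-4 fell from 42.3, 51.2 and 76.7 CPM to 28.5, 26.6 and 24.8 CPM, with no overlap, a log2 fold change of -1.09 ± 0.17. This call was lost without the third untreated library (-0.83) and when only library size was scaled (-0.88). In MONO-MAC-6 CR1 stood at 19.7, 21.9 and 24.7 CPM before and at 34.8, 35.3 and 34.6 CPM after, without overlap, and the log2 fold change of 0.66 was under the limit. The other called rises, all in lines where CR1 passed the filter through the etoposide libraries alone, started from few reads. F-36P went from 2 reads to 88, a ratio of 44.7 with an exact 95% interval of 12.02 to 375. MV-4-11 went from 5 reads to 77 and THP-1 from 12 to 52.

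**Figure D2:**
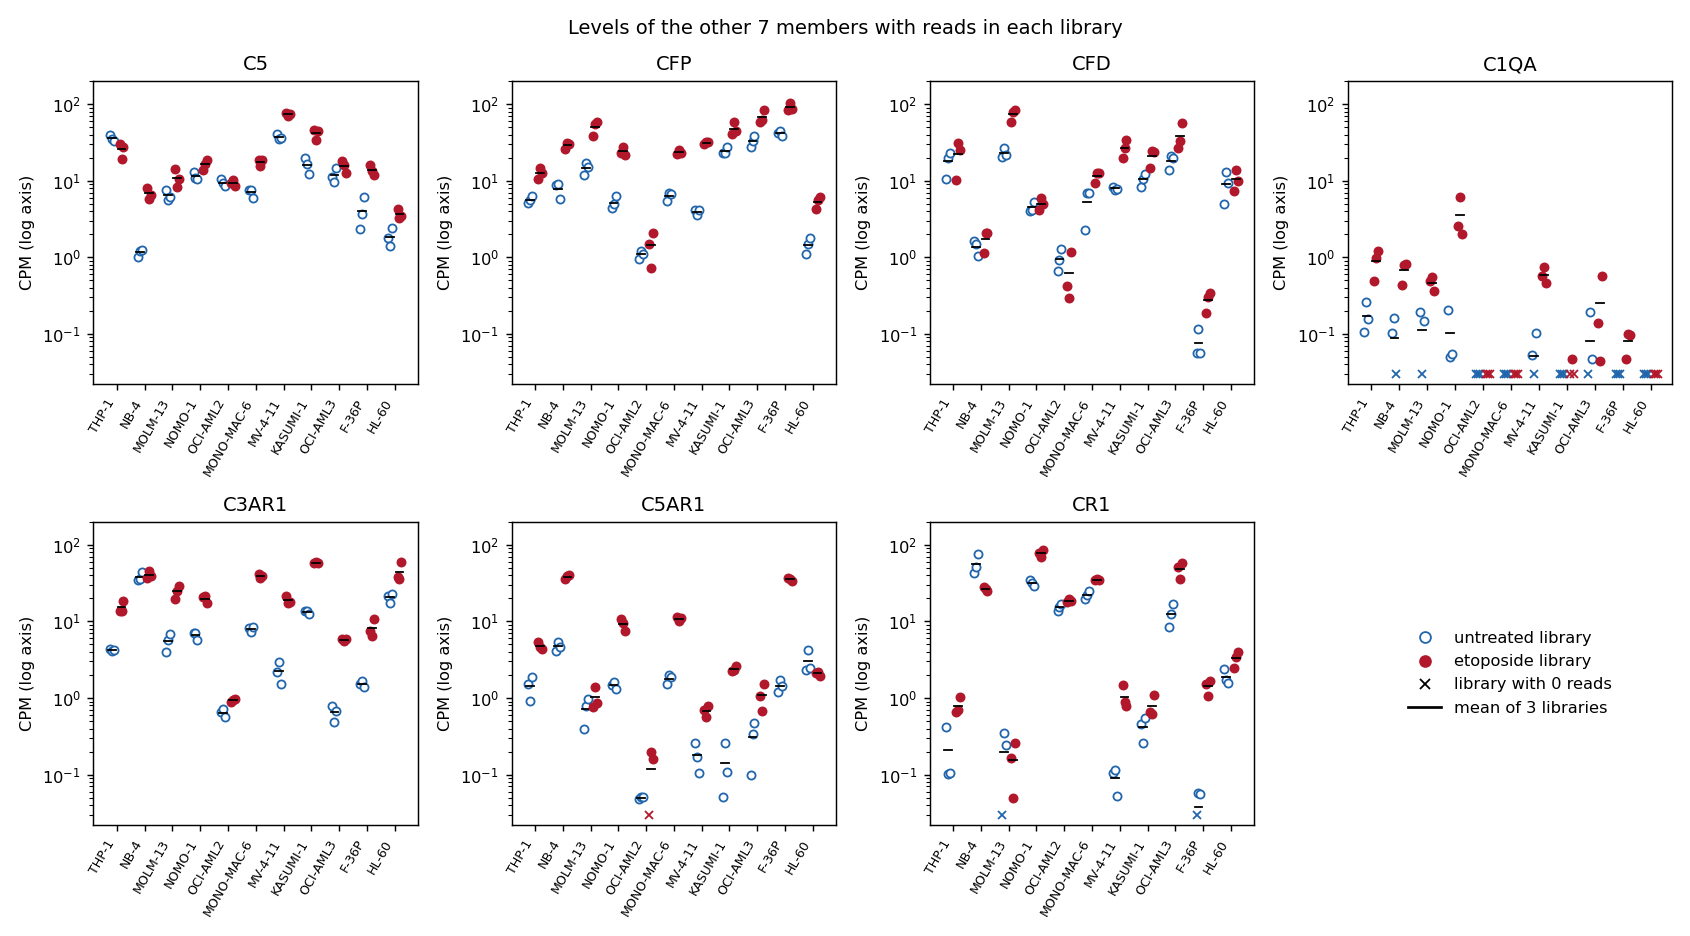
Levels in each library of C5, CFP, CFD, C1QA, C3AR1, C5AR1 and CR1, in CPM on log axes, with untreated libraries as open and etoposide libraries as filled circles, crosses for libraries with 0 reads and bars for means of 3. Properdin lies higher with etoposide in 10 lines, C3AR1 overlaps in NB-4, and CR1 in NB-4 is the member that was called lower.

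Line by line, the members called induced numbered 6 of 6 tested in F-36P, 7 of 8 in MV-4-11, 6 of 7 in MONO-MAC-6 and OCI-AML3, 6 of 8 in NOMO-1 and THP-1, 5 of 7 in KASUMI-1, 4 of 6 in MOLM-13, 4 of 7 in NB-4 and 3 of 7 in HL-60. The share of all tested genes called induced was 24.3% in F-36P, 14.6% in KASUMI-1, 13.2% in NB-4, 12.5% in MV-4-11, 8.59% in MOLM-13, 8.53% in MONO-MAC-6, 8.34% in NOMO-1, 7.18% in OCI-AML3, 6.38% in THP-1 and 5.34% in HL-60. The share called repressed was 6.67% in F-36P, 6.52% in KASUMI-1, 4.82% in NB-4, 4.47% in MONO-MAC-6, 4.43% in NOMO-1, 3.46% in THP-1, 3.37% in MOLM-13, 2.63% in MV-4-11, 1.36% in OCI-AML3 and 1.24% in HL-60. Over the 10 lines 53 of 71 tested pairs of member and line were called induced and 1 repressed. In 14 of the 71 pairs, 12 of them called induced (85.7%), only the etoposide libraries reached the filter's limit in all 3. Of such pairs of all genes 70.2% were called induced. Of the 57 pairs in which both groups reached it, 41 were called induced (71.9%), beside 6.8% of such pairs of all genes. The median log2 fold change of the members ranged from 0.99 in HL-60 to 3.15 in F-36P, and that of all genes from -0.03 to 0.09. Since the members were picked on this contrast, these counts only describe them. HL-60 and NB-4 were the lines in which the members parted most. HL-60 had called rises in C3, CFP and C3AR1 only. NB-4 rose in C3, C5, CFP and C5AR1, overlapped in CFD and C3AR1 and fell in CR1.

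**Figure D3:**
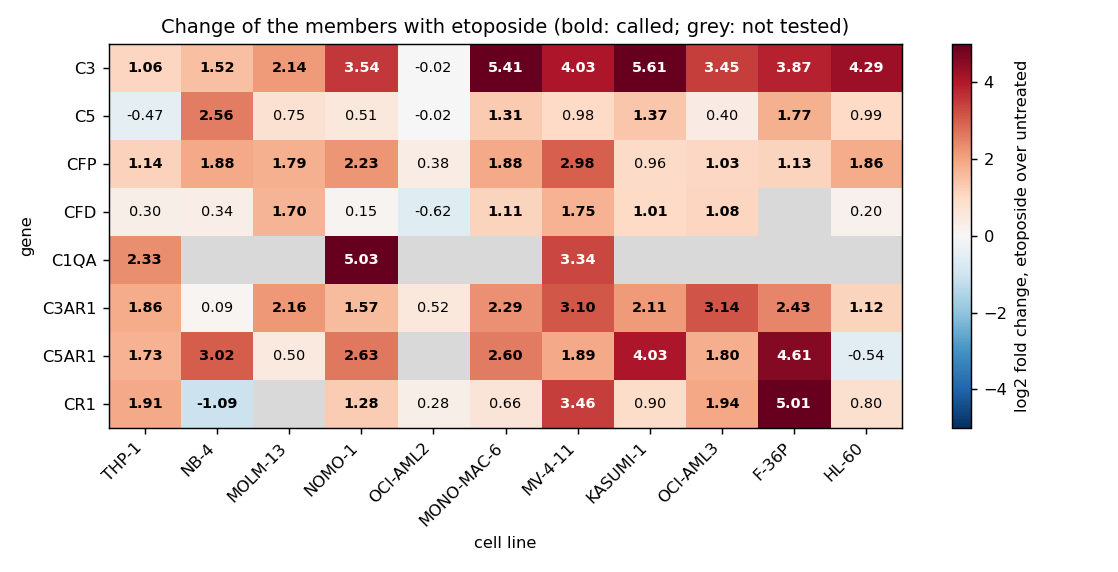
Log2 fold change with etoposide for 8 members (rows) in 11 cell lines (columns, in order of untreated C3), red for higher and blue for lower, with colours ending at 5; bold numbers passed the adjusted p and the fold limit, and grey cells were not tested. C3 is bold in all 10 lines apart from OCI-AML2, and CR1 in NB-4 is the only bold blue cell.

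Complement genes outside the 9 moved in both directions. Of 47 genes of the classical and lectin pathways, the terminal pore, the regulators and the receptors, 35 passed the filter in at least 1 of the 10 lines, which gave 167 gene and line pairs. In 79 pairs the gene was called induced and in 8 repressed, which is 47.3% and 4.79% beside 11.1% and 3.96% of all pairs. In 32 of the pairs, 28 of them called induced (87.5%), only the etoposide libraries reached the filter's limit, so that a rise was largely built in. Of such pairs of all genes 70.2% were called induced. Of the 132 pairs in which both groups reached it, 51 were called induced (38.6%), beside 6.8% of such pairs of all genes. The median log2 fold change of these genes ranged from 0.32 in THP-1 to 1.75 in MV-4-11. F-36P, the line whose number of genes with reads grew most, contributed 19 of the rises among its 31 tested genes, 10 of them through the etoposide libraries alone. By role, and among pairs in which both groups reached the limit, 24 of 59 rose among the receptors, 14 of 46 among the regulators, 12 of 24 in the classical and lectin pathways and 1 of 3 among terminal components. Except where stated, the calls of single genes below are not split by how the gene passed the filter.

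The receptors beside the members were led by ITGAM and ITGAX, the alpha chains of the integrins that bind cleaved C3. ITGAM rose in 9 lines, most in KASUMI-1, from 0.475 ± 0.066 to 18.1 ± 1.1 CPM (SD, n = 3, log2 fold change 5.24). Untreated KASUMI-1 averaged under 10 ITGAM reads per library, the filter's minimum count. The gene thus passed there through its etoposide libraries alone, and the rise was largely built in. NOMO-1, with 231 CPM the highest untreated line, had a log2 fold change of 0.59. ITGAX rose in 8 lines and most in F-36P, by 4.35. Their shared beta chain ITGB2 was tested in 10 lines and called in none, with log2 fold changes of -0.04 to 0.77. C5AR2, the second receptor for the C5 peptide, rose in 7 lines, by 4.71 in MV-4-11 and 2.54 in F-36P, and its call in OCI-AML3 was lost without the first or second untreated or the third etoposide library (0.97 to 1.32). It was not called in HL-60, where C5AR1 was not called either. C1QBP, a mitochondrial protein that also binds C1q, was lower with etoposide in all 10 lines without overlap and was called in 4. The share of all genes that were lower without overlap in as many lines was not counted. Its largest change was in F-36P, from 346 ± 30 to 108 ± 5.1 CPM (C1QBP log2 fold change -1.67, edgeR adjusted p = 2.66e-06).

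Among the regulators, SERPING1, the inhibitor of C1r and C1s, rose in 4 of 5 lines, by 4.41 in MV-4-11 and by 1.55 in F-36P, where it reached 84.6 CPM. Clusterin (CLU), an inhibitor of the terminal pore, rose in 5 lines, by up to 2.12 in NB-4, and its call in OCI-AML3 (1.02) was lost without the second or the third untreated or the second etoposide library (0.81 to 0.99). CD55, which speeds the decay of C3 convertases on the cell's own surface, rose in NOMO-1 (1.27), OCI-AML3 (1.84) and THP-1 (1.22). In MOLM-13, MV-4-11 and NB-4 the CD55 libraries with etoposide were all below the untreated ones, by 0.18 to 0.60, under the fold limit.

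In the classical pathway the proteases of C1 did not move together. C1R rose in 4 of 7 lines, by up to 2.22 in NB-4, with the call in HL-60 lost without its first or second untreated library (1.05 and 1.11). C1S rose in F-36P (2.63, edgeR adjusted p = 8.13e-06) but fell in THP-1, from 5.62 ± 0.84 to 1.995 ± 0.41 CPM (log2 fold change -1.49, edgeR adjusted p = 4.12e-05). It was also called lower in MV-4-11 (-1.62), where only the untreated libraries reached the filter's limit in all 3. A fall there was thus partly built in. Of such pairs of all genes, 1188 of 2905 were called repressed. The related C1RL rose in 5 lines, by up to 1.82 in KASUMI-1, and shares 13.5% of its exon bases with C1R. C1QC, another chain of C1q, was tested in F-36P alone, where 156 reads against 0 make a level at least 52.8-fold higher. C8G, a chain of the terminal component C8, rose in 3 of 5 lines, by up to 2.10 in NB-4. Terminal components had 5 called rises, and in 4 the gene passed the filter through the etoposide libraries alone. C8G holds 3 of the 5, so most of its calls were largely built in.

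**Figure D4:**
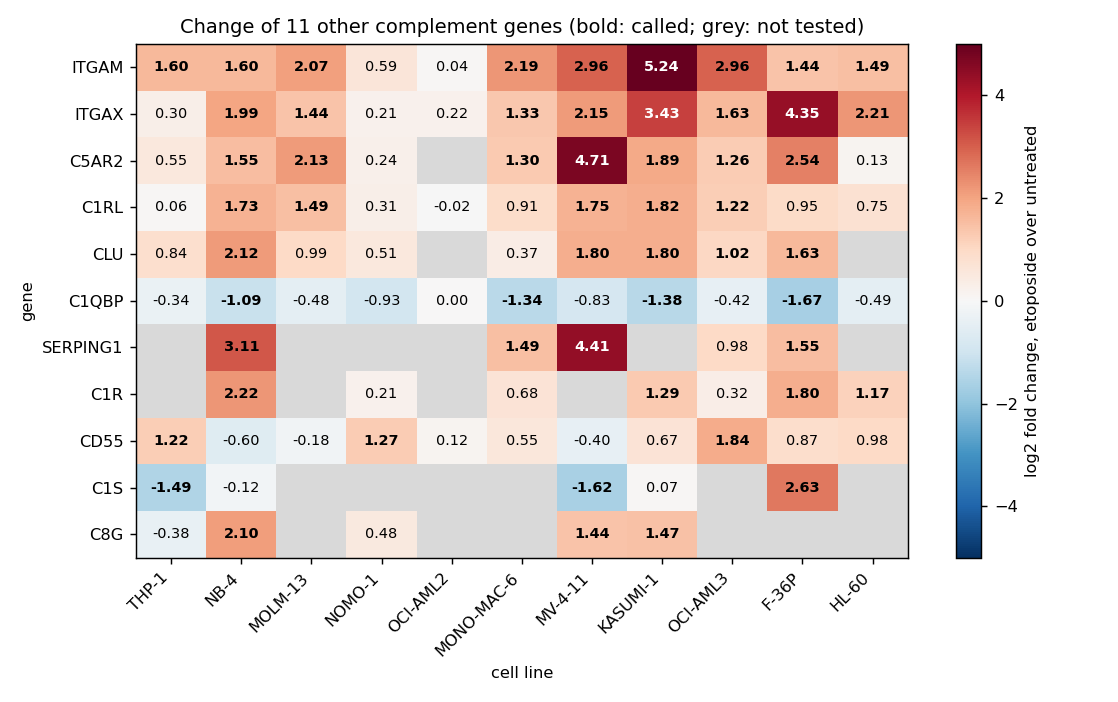
Log2 fold change with etoposide for 11 of the complement genes outside the 9 that were called in the most lines (rows) in the 11 cell lines (columns), red for higher and blue for lower, with colours ending at 5; bold numbers passed the adjusted p and the fold limit and grey cells were not tested. ITGAM is bold in 9 lines, and C1QBP is blue in the 10 lines other than OCI-AML2.

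Basal levels were compared over the 33 untreated libraries, normalized together, and were not used to choose the genes. All 7 members that passed the filter differed between the 11 lines (edgeR F test, adjusted p from 1.14e-26 for C3AR1 to 4.94e-16 for C5AR1), as did 99.4% of all genes tested. A difference between lines is thus the rule in these data, and the order of the lines carries the information. Untreated C3 was highest in THP-1 at 23.4 ± 0.87 CPM, then NB-4 (17.2 ± 3.3), MOLM-13 (9.86 ± 2.4), NOMO-1 (7.10 ± 0.43), OCI-AML2 (6.75 ± 0.70), MONO-MAC-6 (3.86 ± 0.48), MV-4-11 (1.79 ± 0.54), KASUMI-1 (0.682 ± 0.13), OCI-AML3 (0.530 ± 0.097), F-36P (0.231 ± 0.15) and HL-60 (0.219 ± 0.11), each as mean ± SD with n = 3. The highest stood 107-fold above the lowest. Of the 10 neighbours in this order, NOMO-1 and OCI-AML2, KASUMI-1 and OCI-AML3, and F-36P and HL-60 did not differ beyond their spread (edgeR adjusted p = 0.746, 0.435 and 0.927). Over all genes and all pairs of lines, 66.8% of such tests passed. Neighbours are the closest pairs by the choice of order, so the rates are not comparable.

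The orders of the other members were different. C5 was highest in MV-4-11 (35.0 ± 3.1 CPM) and THP-1 (34.7 ± 3.2 CPM), which did not differ (adjusted p = 0.985 in the edgeR contrast), and lowest in NB-4 (1.10 ± 0.12 CPM). Factor D was highest in MOLM-13 (23.7 ± 3.4 CPM) and rested on 4 reads in F-36P, with only 3 of 10 neighbours apart. Properdin had the reverse extreme, with F-36P at the top (39.4 ± 4.1 CPM), not apart from OCI-AML3 (32.8 ± 5.1 CPM, edgeR adjusted p = 0.0799), and OCI-AML2 at the bottom (1.09 ± 0.13 CPM). C3AR1 and C5AR1 shared their first places, NB-4 (36.5 ± 4.6 and 4.52 ± 0.65 CPM) and HL-60 (19.2 ± 2.6 and 2.82 ± 0.98 CPM). CR1 was also highest in NB-4 (53.9 ± 17 CPM), followed by NOMO-1, MONO-MAC-6, OCI-AML2 and OCI-AML3 at 12.6 to 28.7 CPM, and was at 1.77 CPM or less in the remaining 6 lines. C1QA was at most 0.168 CPM in untreated cells, and 5 lines had no read of it.

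The 5 lines that the study lists as the monocytic class M5 (THP-1, MONO-MAC-6, NOMO-1, MOLM-13 and MV-4-11) were set against the other 6, with 1 mean per line. The mean log2 CPM of C3 was 2.71 in M5 and 0.40 in the other lines, a difference of 2.31 ± 1.13 (SE). No gene of 18130 passed (0% called), C3 included (limma adjusted p = 0.739), with 1243 genes at an unadjusted p under 0.05. For C5 the difference was 1.54 and for CFD 1.74, and for C3AR1, C5AR1, CFP and CR1 it was 0.09, 0.28, -0.47 and -1.12. For all 7 members tested the lowest M5 line was below the highest other line, so the classes overlapped.

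Over the 11 untreated line means of log2(1 + CPM), the genes most like C3 were ATL1, which encodes an endoplasmic reticulum GTPase (Pearson r = 0.919), HSP90B1, the chaperone of the endoplasmic reticulum (0.919), ETFRF1 (0.855), CHI3L1 (0.852) and SCAF11 (0.848), out of 13666 genes compared. HSP90B1 ranged from 881 CPM in OCI-AML3 to 2068 CPM in NB-4 and ATL1 from 0.0638 to 2.10 CPM. Over the log2 fold changes of 10 lines the most alike were RPL13P8 (r = 0.966), BLOC1S1 (0.902), PIDD1 (0.888), TARDBP (0.877) and ANKRD36B (0.863), out of 10542. PIDD1, a death-domain adaptor of the DNA damage response, had values of -0.01 in THP-1 and of 1.19 and 1.28 in KASUMI-1 and MONO-MAC-6, while C3 changed by 1.06, 5.61 and 5.41 in the same lines. RPL13P8, a processed pseudogene, ran from -1.13 in THP-1 to 0.99 in KASUMI-1, and reads of a near-identical ribosomal gene may fall on it. These values come from few lines, share their libraries with C3 and were ranked among many genes, so they are a description only.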

How the data were processed

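RNA from 66 libraries of 11 cell lines was sequenced with a stranded kit. Per the labels and the study's methods, the authors aligned reads to GRCh38.p7 by STAR 2.5.3a and deposited counts of reads per gene, whole numbers without normalization, in 1 column per library. Of 707 genes lying inside an exon of the opposite strand, 463 had reads, and the counts are by strand. Of 58037 identifiers, 45 chromosome Y copies of pseudoautosomal genes, with 0 reads, were left out. Names came from gencode release 44 for 56948 identifiers. Every replicate pair differed by more than sampling noise (chi-square per degree of freedom of 2.05 or more).

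In R 4.3.3, edgeR 4.0.16 compared etoposide with untreated libraries in each line (filterByExpr with a minimum count of 10 and total of 15, TMM, quasi-likelihood test, Benjamini-Hochberg adjustment over all genes tested). Basal levels were tested with the edgeR F test and pairwise contrasts, and M5 lines with limma 3.58.1 on line means (prior count 2). Alternatives included DESeq2 1.42.0, other scalings and filters, and each replicate left out. Only in NB-4 did same-numbered libraries deviate together in all 3 pairs with a correlation above 0.1 (r of 0.152 or more), so its numbers were taken to pair the libraries. In 5 other lines all 3 were above 0 and at least 1 missed that limit, so the choice depends on it. Tables and figures used Python 3.11.15, scipy 1.17.1 and matplotlib 3.10.9, and the steps were tested on simulated data. The 9 genes and all lists were chosen with earlier results of these data known. Among the 47 other complement genes, the 12 called in the most lines were taken, 1 of which is not reported here, and for likeness to C3 the 5 highest of each measure among genes averaging 1 CPM or more.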

Additional observations from a re-analysis of the deposited data

Results flagged for a closer look

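In 5 of the members and of the other complement genes named above, every etoposide library lay below every untreated one in 1 line and above in another. The difference between the lines was not tested, and the share of all genes that do the same was not counted. By edgeR's adjusted p alone, 2310 genes were higher and 1980 lower of 13210 in HL-60. In F-36P 5561 were higher and 3974 lower of 15911, so changes in either direction were common. The log2 fold change of C5 was -0.47 in THP-1 and 2.56 in NB-4. For C5AR1 the values were -0.54 in HL-60 and 4.61 in F-36P. CR1 had -1.09 in NB-4 and 5.01 in F-36P, where it started from 2 reads. CD55, outside the 9 genes, stood at -0.60 in NB-4 and 1.84 in OCI-AML3, and C1S at -1.62 in MV-4-11 and 2.63 in F-36P. In MV-4-11 C1S passed the filter on low counts through its untreated libraries alone.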

How the results depend on the processing

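The count of lines with C3 called induced was 10. It was 9 to 10 with 1 replicate left out, 7 when genes averaging under 5 CPM were left out, and 10 under the other alternatives. That stricter filter took C3 out of the test in F-36P, HL-60 and OCI-AML3, so lower counts under it are not all lost calls. The member and line pairs called induced numbered 53, with 51 to 55 when a replicate was left out and 39 to 60 otherwise, always within 1.5 times of 53. The single pair called repressed, CR1 in NB-4, became 2 without a fold change minimum and 0 with library size alone, and was 0 to 1 with a replicate left out. For the other complement genes, the 79 pairs called induced became 43 with that stricter filter and were 79 to 86 with a replicate left out. Their 8 repressed pairs became 22 without a fold change minimum, 5 with library size alone, 5 with the stricter filter, and 8 to 10 with a replicate left out. Library size alone shifted the median log2 fold change of all genes to 0.34 in F-36P, 0.21 in NB-4, 0.20 in KASUMI-1, 0.14 in MV-4-11 and 0.13 in MONO-MAC-6. Among the members and named genes, direction turned for values that had not passed the test. With a replicate left out, CFD in HL-60 ranged from -0.092 to 0.556 (-0.051 without etoposide replicate 2), and C3AR1 in NB-4 from -0.002 to 0.187. C1S was -0.007 in KASUMI-1 without untreated replicate 2, and in NB-4 it was 0.083 with library size alone and -0.328 to 0.196 with a replicate left out (0.004 without untreated replicate 3). The M5 difference turned for C3AR1 with log2(1 + CPM) (-0.17) and without F-36P (-0.22), and for C5AR1 with log2(1 + CPM) (-0.057). The basal F test passed for 7 or 8 members and the M5 test for 0 under every alternative run.

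With the replicate number as a block, no member call changed in NB-4, where the numbers were taken to pair the libraries (CR1 -1.05, C3 1.51). In the other lines, where the numbers were not taken to pair the libraries, the block ended the call of CFD in KASUMI-1 (0.99). It brought CLU in MOLM-13 past the limit (1.01) and ended the call of CLU in OCI-AML3 (1.02). MOLM-13 came close to the limit for pairing, with correlations of 0.231, 0.089 and 0.149. The causes were not tested. Called rises from under 20 untreated reads were C3 in F-36P and HL-60, C5AR1 in KASUMI-1, MV-4-11 and OCI-AML3, CR1 in F-36P, MV-4-11 and THP-1, and C1QA in its 3 lines.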
